A study of Mus musculus with 4 samples.

Results

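The Mrpl and Mrps genes encode the proteins of the mitochondrial ribosome, and their mRNA was measured here in single cells of mouse colonic organoids. Members were all genes of the deposited gene table whose symbol is Mrpl or Mrps followed by a number and at most 1 letter. This rule took 78 of 30360 genes, 49 with an Mrpl and 29 with an Mrps symbol, and used no measured value. The organoids were grown in gel from the distal colon of wildtype mice (C57BL/6) and of Tnfr2-/- mice. The paper lists the Tnfr2-/- strain as B6.129S2-Tnfrsf1b tm1Mwm/J, a stock apart from that of the wildtype. The Tnfr2-/- mice carry the tm1Mwm allele of Tnfrsf1b in every cell of the body, and donors were 16 weeks old per the labels. After passage 5 the cytokine tumor necrosis factor (TNF, 20 ng/ml) or vehicle (called untreated here) was given between days 1 and 6, and cells were harvested on day 7 after depletion of apoptotic cells. Each of the 4 groups was 1 culture and 1 library. Wildtype cultures, untreated and then TNF, are given first, followed by Tnfr2-/- cultures, untreated and then TNF. The cultures also held mesenchymal cells, so TNF could reach more than 1 cell type. Mesenchymal cells were 1430 of 2589, 306 of 1469, 90 of 1117 and 122 of 980 cells in that order. What part this make-up had in the member values was not tested.

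Runs of 4 values below follow that order of groups. With 1 library per group there was no replicate check and no test between groups, so every difference is between single cultures. Levels are CPM (counts scaled so that all genes of a class in a library sum to 1e6): unique molecular identifiers (UMIs) of a gene or gene group, summed over the cells of a class, relative to all UMIs of those cells. Their 95% intervals are exact Poisson intervals on the pooled UMIs and leave out any variation among cells, cultures or mice. Each UMI comes from the 3' end of an mRNA, so levels were not divided by gene length. Differences between 2 libraries are log2 ratios, of sums as such and of single genes after adding 1 CPM.

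Mitochondria translate the few mRNAs of their own genome on a ribosome of bacterial descent, whose RNA is made in the mitochondrion and whose proteins are all made from nuclear genes and imported. All products of that ribosome in mammals are membrane subunits of the respiratory chain and of ATP synthase, which colonocytes use to oxidise fatty acids from the gut lumen. Of the members, 51 belong to the large subunit, 26 to the small subunit and 1, Mrps36, is now assigned to the 2-oxoglutarate dehydrogenase complex. Mrps18a and Mrps30 carry small subunit names but sit in the large subunit.

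The libraries held between 980 and 2589 cells and between 44547639 and 87228093 UMIs, of which 205068 to 650722 were member UMIs. Libraries shared 1 or 2 cell barcodes with another. Classes were those of the deposited annotation, 7 epithelial and 4 mesenchymal. In epithelial cells the summed CPM of 5 epithelial markers was 7513 to 9335 and that of 6 mesenchymal markers 4.32 to 21.2, and immune markers were at or near 0. Single epithelial classes held more mesenchymal marker mRNA, up to 807 CPM in Secretory-Reg4-Ang4 and 233 in wildtype untreated Enteroendocrine cells. Tnfrsf1b, the targeted gene, was at 4.17, 12.1, 1.82 and 6.89 CPM in epithelial cells. It was lower in Tnfr2-/- in both pairs over all epithelial cells but not absent, and in Progenitor.2, at 1.19, 14.7, 5.15 and 7.65 CPM, it was higher in Tnfr2-/- in the untreated pair. Whether the 3' tags lie outside the deleted part is not known here, so its level did not check the deletion.

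Promoters are shown first, because the members are read from separate nuclear genes on 17 chromosomes. RefSeq sequences on GRCm38.p6, from 250 bases before to 50 bases after the start, were found for 69 of the 78 members. The letters searched on both strands were GCGCANGCG for nuclear respiratory factor NRF1, CCGGAAGT for ETS factors such as GABPA, AAGATGGCG for YY1 and CACGTG for the E-box that MYC and its relatives bind. Matches of each string were counted apart, so matches of different strings may overlap. The NRF1 letters were in 16 member promoters (23.2%), against 7.03% of all 27025 genes with a promoter and 1121 of the 6216 genes at 10 CPM or more in Progenitor.1. ETS letters were in 12 (17.4%), against 4.31% and 11.3%, and YY1 letters in 8 (11.6%), against 1.64% and 4.47%. E-box letters were in 5 (7.25%), against 8.09% and 12.9%. At least 1 of the NRF1, ETS and YY1 letter strings was present in 34 members, and 2 members, Mrps26 and Mrps27, held more than 1 kind. Expressed genes hold these letters more often than all genes, so the second share is the closer comparison, and a match is a description of letters, not a bound site.

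The next 4 promoters, printed 5′ to 3′ on the strand of the gene with the NRF1, ETS or YY1 letters in capitals, show the member that was highest in Progenitor.1 (Mrpl12, chr11:120484387-120484686, plus strand), one with 2 kinds of letters (Mrps27, chr13:99344536-99344835, plus strand), one with YY1 letters just after the start (Mrpl42, chr10:95501900-95502199, minus strand) and one with none (Mrps6, chr16:92058086-92058385, plus strand).
Mrpl12: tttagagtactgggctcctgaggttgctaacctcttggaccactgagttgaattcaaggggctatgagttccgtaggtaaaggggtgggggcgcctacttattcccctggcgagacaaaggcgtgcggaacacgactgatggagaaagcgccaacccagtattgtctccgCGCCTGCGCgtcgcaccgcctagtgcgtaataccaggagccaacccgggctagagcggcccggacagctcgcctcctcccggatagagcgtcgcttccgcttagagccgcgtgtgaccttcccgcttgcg
Mrps27: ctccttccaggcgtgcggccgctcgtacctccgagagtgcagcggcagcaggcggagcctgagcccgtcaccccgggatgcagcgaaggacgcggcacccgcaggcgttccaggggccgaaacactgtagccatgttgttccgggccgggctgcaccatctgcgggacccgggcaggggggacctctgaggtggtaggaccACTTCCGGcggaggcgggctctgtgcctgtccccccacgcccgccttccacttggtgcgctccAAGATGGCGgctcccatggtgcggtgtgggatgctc
Mrpl42: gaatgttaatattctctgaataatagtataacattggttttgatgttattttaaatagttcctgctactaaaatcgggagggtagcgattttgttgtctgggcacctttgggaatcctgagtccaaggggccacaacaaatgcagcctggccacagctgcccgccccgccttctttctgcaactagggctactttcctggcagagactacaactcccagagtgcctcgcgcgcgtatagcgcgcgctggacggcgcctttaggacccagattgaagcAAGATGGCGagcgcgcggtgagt
Mrps6: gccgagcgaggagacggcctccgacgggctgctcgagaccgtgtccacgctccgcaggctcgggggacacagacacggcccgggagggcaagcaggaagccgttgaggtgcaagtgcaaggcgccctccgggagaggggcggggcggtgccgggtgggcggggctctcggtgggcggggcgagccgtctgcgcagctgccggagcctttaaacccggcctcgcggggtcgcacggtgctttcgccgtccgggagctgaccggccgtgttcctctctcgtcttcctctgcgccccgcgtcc
The NRF1 letters of Mrpl12 begin 80 bases before the start. In Mrps27 the ETS letters begin 49 bases before and the YY1 letters 14 bases after it, and in Mrpl42 the YY1 letters begin 27 bases after it. In Progenitor.1 the median differences for genotype untreated, genotype with TNF, TNF in wildtype and TNF in Tnfr2-/- were -0.21, -0.16, -0.18 and -0.17 over the 16 members with NRF1 letters, and -0.16, -0.14, -0.25 and -0.19 over the 34 measured members with none of the 3 kinds. Neither set was the lower one in all 4 comparisons.

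Members were read at low to middling levels. In Progenitor.1 the mean CPM over the 4 libraries had a median of 86.7 over members, with quartiles at 55.6 and 135, and 77 of 78 passed 10 CPM. Mrpl12, whose protein forms the stalk that recruits translation factors, was the highest at 411, 289, 342 and 254 CPM. Mrpl52 followed at 334, 326, 306 and 271 CPM, Mrps24 at 333, 237, 249 and 200, Mrpl30 at 284, 210, 238 and 194, and Mrpl33 at 241, 243, 230 and 178. In 4 of these 5 genes the wildtype untreated library was the highest, and Tnfr2-/- TNF was the lowest in all 5. Of all 78 members, 59 were highest in wildtype untreated and 52 lowest in Tnfr2-/- TNF, and the shares over all genes were not computed. The 5 highest members held 16.3% of all member CPM.
At the other end, Mrps2 was at 14.5, 12.4, 22.7 and 19.7 CPM, Mrps27 at 27.2, 27.4, 23.6 and 19.7, Mrpl47 at 26.0, 27.3, 28.2 and 26.1 and Mrpl37 at 29.3, 26.8, 29.2 and 22.4. Mrpl53 was nearly unread, with a mean of 0.378 CPM. Its exons overlap those of another counted gene on the same strand, and so do those of Mrps6, Mrps24 and Mrps34, so reads of these 4 genes may have been split or dropped in counting.

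**Figure D1:**
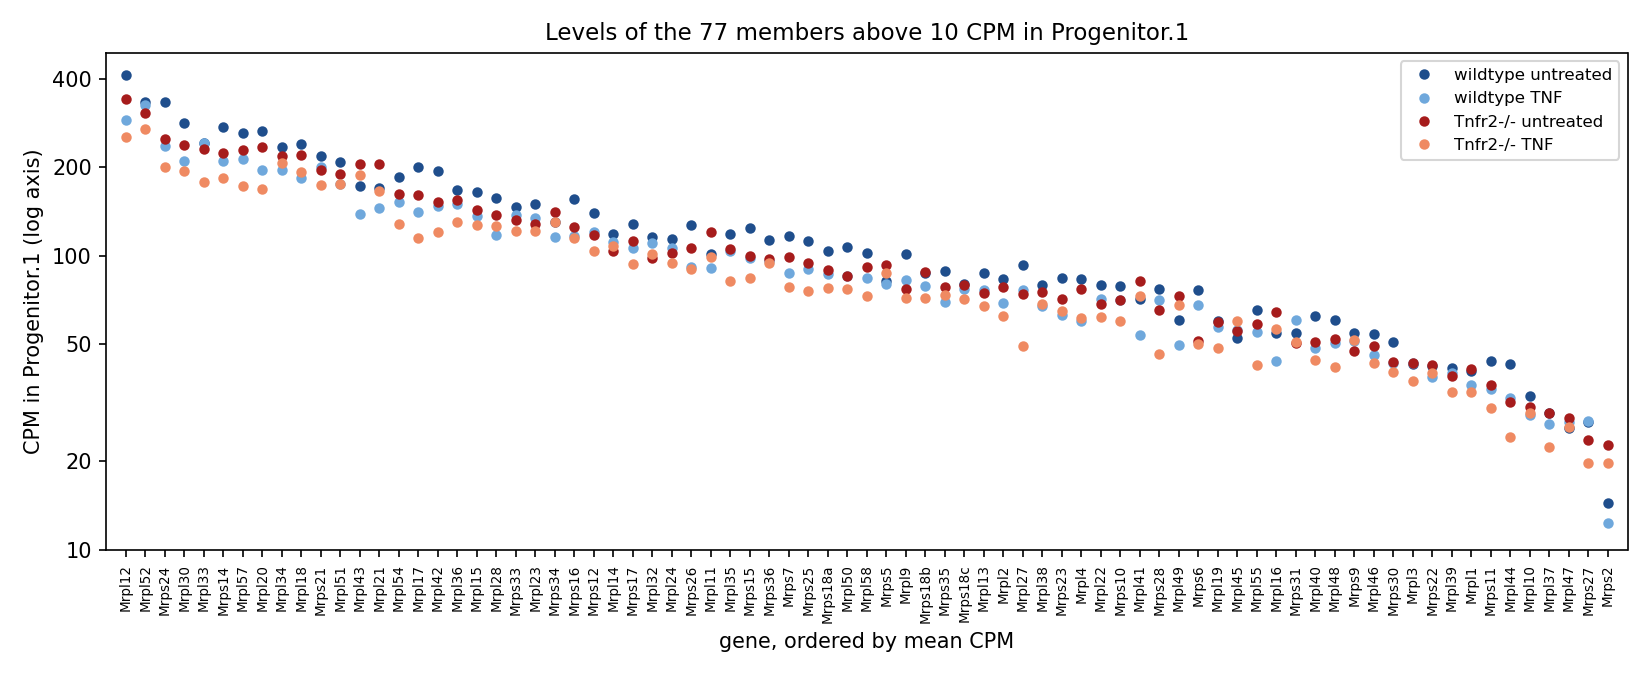
CPM (log axis) of the 77 members above 10 CPM in Progenitor.1, ordered by their mean, with 1 point per library. Mrpl12 is highest at 254 to 411 CPM. The wildtype untreated library is the highest in 59 of all 78 members, of which Mrpl53 is not plotted, and the share over all genes was not computed.

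The summed level varied between classes as well as between libraries. Progenitor.3, a class with few UMIs per cell, had the highest sum of the epithelial classes in 3 of the 4 libraries, at 10034, 9185, 9416 and 7178 CPM, the last from 11 cells. Its 26 cell cycle genes summed to 2045, 2729, 1938 and 1936 CPM. Progenitor.1 had 9398, 7836, 8432 and 7202 CPM, and Secretory-Reg4-Spdef-Lyz1 had 8167, 7142, 6844 and 5473, the last from 8 cells. Absorptive cells had 7296 CPM in the 319 cells of wildtype untreated, and 5838, 6578 and 5807 CPM in the 19, 11 and 1 cells of the other libraries. Enteroendocrine cells had 6417, 6114, 6468 and 4481 CPM. Progenitor.2 had 5937, 5042, 5560 and 4323 CPM and was below Progenitor.1 in all 4 libraries. The Secretory-Reg4-Ang4 class, found in wildtype TNF alone, had 6050 CPM in 246 shallow cells with a median of 1957.5 UMIs.
In the mesenchyme the proliferative class had 7125 CPM in wildtype untreated, above Mesenchyme-Ifitm1 at 6063 and Mesenchyme-generic at 4989. Classes were clustered on all genes, so differences between classes are a description.

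**Figure D2:**
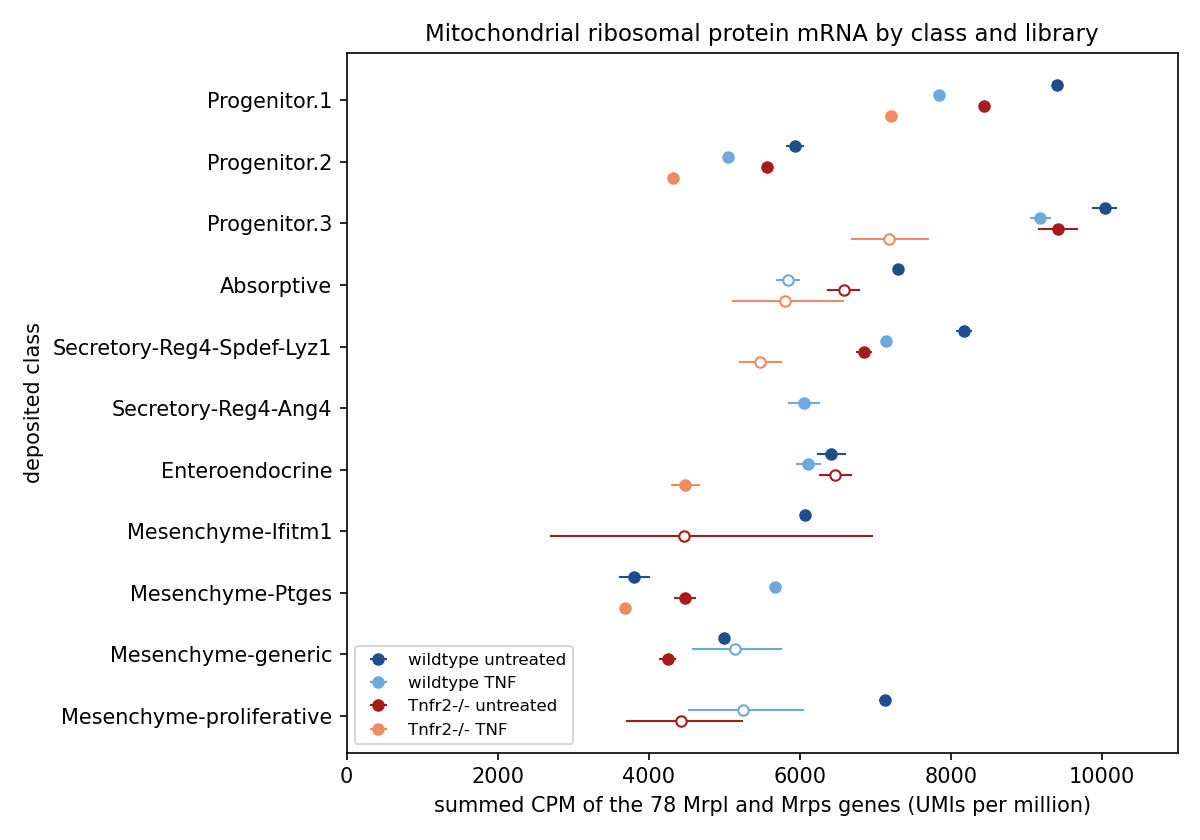
Summed CPM of the 78 members (x axis) in each deposited class (y axis), with 1 point per library and exact Poisson 95% intervals; open points rest on fewer than 20 cells. In Progenitor.1 and in Progenitor.2 the libraries stand in the same order, from wildtype untreated (9398 and 5937 CPM) down to Tnfr2-/- TNF (7202 and 4323 CPM). With means over cells the Progenitor.2 order changed (4092, 4409, 4932 and 3997 CPM), and its wildtype untreated value rests on 62 cells.

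Other members were looked at for their roles. Mrpl10 and Mrpl11, which anchor the stalk that Mrpl12 forms, were at 33.5, 28.8, 30.5 and 29.3 CPM and at 102, 90.8, 121 and 99.3 CPM in Progenitor.1. Mrpl58, a peptidyl-tRNA hydrolase in the large subunit, was at 102, 84.2, 91.4 and 72.9 CPM. Of the large subunit proteins Mrpl3, Mrpl13 and Mrpl41, only Mrpl13 (87.3, 76.7, 74.9 and 67.3 CPM) was highest in wildtype untreated and lowest in Tnfr2-/- TNF.
Among small subunit genes, Mrps12, the relative of a bacterial protein at the decoding site, was at 140, 120, 118 and 104 CPM in Progenitor.1 and 85.2, 63.1, 70.4 and 52.4 in Progenitor.2. Mrps7 was at 116, 87.4, 99.4 and 78.6 CPM and Mrps15 at 124, 98.1, 99.9 and 83.9 in Progenitor.1. All 3 were highest in wildtype untreated and lowest in Tnfr2-/- TNF there. Mrps5 at 81.9, 80.4, 93.2 and 87.4 and Mrps34 at 131, 116, 141 and 130 CPM were highest in Tnfr2-/- untreated.
The 3 relatives of bacterial S18 were at similar levels. Mrps18a of the large subunit was at 104, 86.7, 89.8 and 77.6 CPM, Mrps18b at 87.4, 79.0, 88.4 and 72.0 and Mrps18c at 80.4, 76.9, 79.4 and 71.2. Each was lowest in Tnfr2-/- TNF. Mrps30 was at 51.0, 43.1, 43.5 and 40.2 CPM, and Mrps36, outside the ribosome, at 114, 96.4, 97.9 and 94.6, with the same library highest and lowest.

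Large and small subunit mRNAs shifted by similar amounts with TNF, while for genotype the small subunit was the lower. In Progenitor.1 the large subunit genes summed to 6383, 5322, 5815 and 4919 CPM and the small subunit genes to 2902, 2418, 2518 and 2188 CPM. TNF minus untreated was -0.26 for both subunits in wildtype, and -0.24 (large) and -0.20 (small) in Tnfr2-/-. For Tnfr2-/- minus wildtype the small subunit had the lower values, -0.20 against -0.13 in the untreated pair and -0.14 against -0.11 in the TNF pair. In Progenitor.2 the genotype values were -0.19 (small) against -0.05 (large) untreated and -0.30 against -0.19 with TNF. The TNF values there were -0.26 (small) against -0.23 (large) in wildtype and -0.37 against -0.36 in Tnfr2-/-. All 5 members on chromosome 19, higher in Tnfr2-/- in both Progenitor.1 pairs, are large subunit genes. So is Mrpl41 on chromosome 2, but Mrps2 and Mrps5 there, also higher, are small subunit genes. What part these genes had in the gap between subunits was not tested.

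Progenitor.1 and Progenitor.2 differed in every library. The ratio of the sums was 1.58, 1.55, 1.52 and 1.67, a log2 difference of 0.66 in wildtype untreated that became 1.15 with the mean over cells. With median-of-ratios scaling the difference was smaller in every library. With TMM scaling it was smaller in both TNF libraries and somewhat larger in Tnfr2-/- untreated. The median member was 0.82, 0.80, 0.73 and 0.89 higher in Progenitor.1 on the log2 scale, where the median of all genes tested was 0.05, 0.10, 0.06 and 0.15. Of the 76 or 77 members that passed 10 CPM, 72 to 74 were higher in Progenitor.1, a count without a share over all genes. Higher by 1.5-fold were 56, 53, 51 and 58 members, against 27.4%, 27.8%, 24.0% and 28.4% of all genes tested. Lower by 1.5-fold were 0, 1, 1 and 0 members, for which the share over all genes is not given. Mrps21 and Mrpl14 were lower in Progenitor.1 in every library. Mrps21 was at 219, 201, 196 and 174 CPM in Progenitor.1 and 298, 241, 228 and 185 in Progenitor.2. Mrpl14 was at 118, 111, 104 and 108 CPM in Progenitor.1 and 148, 137, 160 and 133 in Progenitor.2. Mrpl33 was lower in Progenitor.1 in all libraries but wildtype TNF. The summed CPM of 6 stem and cycling markers was 38.7 to 136 in Progenitor.2, against 811 to 1328 in Progenitor.1.
Single cells showed the same gap. After thinning every cell to 5000 UMIs, the median Progenitor.1 cell had a UMI of 31, 28, 29 and 25 members and the median Progenitor.2 cell of 17.5, 17.5, 19 and 16. Without thinning the medians were 73, 72, 73 and 71 in Progenitor.1 and 38.5, 57, 57 and 55 in Progenitor.2.

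Within Progenitor.1, member mRNA was lower with TNF and lower in Tnfr2-/-. The class held 546, 335, 647 and 95 cells. The sum was 9398 CPM (interval 9362 to 9434), 7836 (7795 to 7877), 8432 (8402 to 8462) and 7202 (7128 to 7276), and no 2 of the 4 intervals overlap. TNF minus untreated was -0.26 in wildtype and -0.23 in Tnfr2-/-. Tnfr2-/- minus wildtype was -0.16 untreated and -0.12 with TNF, which became -0.24 untreated with median-of-ratios scaling and -0.080 with TNF in cells without Mki67 or Top2a. Absorptive markers (4 genes) summed to 415, 24.97, 120 and 52.3 CPM in the class, highest in wildtype untreated and lower with TNF in both genotypes, and their part in the member values was not tested. The median member difference was -0.17 and -0.15 for genotype and -0.24 and -0.19 for TNF, where the median of all genes tested was 0.07, -0.03, 0.06 and -0.02.
These are shifts of many genes by a little. For TNF, 71 of 77 members lay below the median of all genes in both pairs, as 33.1% of all genes did. For genotype it was 52 of 77, against 35.4%. No member passed 1.5-fold in both TNF pairs in either direction, against 1.21% of all genes higher and 0.563% lower. Past -0.32 on the log2 scale, a lower threshold, 6 members were lower with TNF in both pairs, against 2.67% of all genes, and these were Mrpl12, Mrpl17, Mrpl20, Mrpl42, Mrpl44 and Mrps7. For genotype, Mrps2 alone was higher by 1.5-fold in both pairs (background 2.27%), none was lower by 1.5-fold (1.65%), and Mrps6 and Mrpl44 were past -0.32 (5.9%). The call of Mrps2 was lost (0 members) with TMM or median-of-ratios scaling and with a pseudocount of 10.
Mrpl17, a large subunit protein, was at 201, 141, 161 and 115 CPM, with TNF differences of -0.51 and -0.48. Mrpl20 was at 266, 196, 235 and 168 CPM (-0.44 and -0.48), and Mrpl12 had -0.51 and -0.42. Both TNF libraries were below both untreated libraries for each of these 3 genes. Mrpl45, which helps to dock the ribosome at the inner membrane, and Mrps31 were the 2 members higher with TNF in both pairs, Mrpl45 at 52.6, 56.1, 55.5 and 60.3 CPM and Mrps31 at 54.8, 60.7, 50.6 and 50.9, differences of 0.15 or less.
The order of the libraries was the same in cycling and in other cells of the class. Cells with a UMI of Mki67 or Top2a after thinning made up 42.3%, 44.5%, 44.0% and 46.3% of Progenitor.1 and had 9747, 8006, 8745 and 7139 CPM. Those without had 9084, 7677, 8113 and 7264. In Tnfr2-/- TNF, with 44 and 50 cells, the order of these 2 kinds of cell was turned and their intervals (7036 to 7244 and 7160 to 7369) overlap.

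Within Progenitor.2 the same order of sums was found, but the untreated wildtype value is weak. The class held 62, 273, 233 and 716 cells, and its sums were 5937 CPM (interval 5821 to 6055), 5042 (5003 to 5081), 5560 (5514 to 5607) and 4323 (4301 to 4345). TNF minus untreated was -0.24 in wildtype and -0.36 in Tnfr2-/-, and Tnfr2-/- minus wildtype was -0.09 untreated and -0.22 with TNF. With TMM scaling these 4 differences were -0.19, -0.19, -0.18 and -0.18, and with median-of-ratios scaling -0.19, -0.22, -0.17 and -0.20. The content of the class differed between libraries: absorptive markers (4 genes) summed to 3342, 1785, 729 and 567 CPM and goblet and deep secretory markers (5 genes) to 56.6, 773, 116 and 1912 CPM, and their part in the member values was not tested. Of the 62 wildtype untreated cells, 29 had at least 10% of their UMIs from mitochondrial genes, against 38 of 273, 33 of 233 and 144 of 716 in the other libraries, and 3 deep cells held 24.8% of the UMIs. Averaged over cells in place of UMIs the levels were 4092, 4409, 4932 and 3997 CPM, which turned 2 of the 4 differences: wildtype TNF minus untreated became 0.11 and the untreated genotype difference 0.27. Genotype with TNF became -0.14. Without the top 5% of cells by UMIs, wildtype TNF minus untreated was -0.088 and the untreated genotype difference 0.10. Among cells under 10% mitochondrial UMIs, a choice made after the values were seen, the sums were 6527, 5188, 5662 and 4426 CPM, and all 4 differences were negative again, at -0.33, -0.36, -0.21 and -0.23 for TNF in wildtype, TNF in Tnfr2-/-, genotype untreated and genotype with TNF. The 2 differences that do not use this library, TNF in Tnfr2-/- and genotype with TNF, were negative under every alternative tried.
Over single members the median difference was -0.01 and -0.19 for genotype and -0.26 and -0.36 for TNF (-0.19 for the last with TMM scaling), where the median of all genes was 0.06, -0.03, 0.00 and -0.11. For TNF, 53 of 74 members were below the median of all genes in both pairs, against 33% of all genes, and 25 of 74 were past -0.32 in both, against 10.4%. None passed 1.5-fold in both TNF pairs, against 1.4% of all genes higher and 2.16% lower. For genotype 38 of 74 were below the median of all genes in both pairs, against 35.3%, and 6 were past -0.32, against 10.8%. None was higher by 1.5-fold in both genotype pairs (4.07%), and Mrps6 and Mrpl55 were lower (4.54%). This count of 2 became 1 with TMM, median-of-ratios or a pseudocount of 10.
Mrpl40, Mrpl57 and Mrpl55, all large subunit proteins, had the largest TNF differences by the smaller of both pairs. Mrpl57 was at 154, 105, 134 and 87.7 CPM (-0.54 and -0.60), Mrpl40 at 45.3, 24.2, 34.1 and 22.6 (-0.88 and -0.58) and Mrpl55 at 65.5, 37.6, 35.9 and 24.4 (-0.78 and -0.54). For each of the 3, both TNF libraries were below the untreated library of their genotype.
Mrps6 (ENSMUSG00000039680), a small subunit protein, stood out among members. In Progenitor.2 it was at 78.6, 139, 46.1 and 48.2 CPM, so that Tnfr2-/- minus wildtype was -0.76 untreated and -1.51 with TNF, and wildtype TNF was high alone. In Progenitor.1 it was at 76.8, 68.1, 51.3 and 50.1 CPM (-0.57 and -0.44). Slc5a3, a myo-inositol transporter gene whose exons overlap those of Mrps6 on the same strand, was at 29.8, 44.1, 13.7 and 12.8 CPM in Progenitor.2, with both Tnfr2-/- libraries below both wildtype libraries as for Mrps6. Reads of the pair may be split in counting, and what part this had in the values of Mrps6 was not tested.

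Members on chromosomes 2 and 19 differed from the others in the genotype comparison. These 2 chromosomes were set apart with earlier results of these data known, and values for other single chromosomes are not given here. The contrast is therefore a description. Chromosome 19 holds 5 members (Mrpl11, Mrpl16, Mrpl21, Mrpl43 and Mrpl49) and chromosome 2 holds 4 (Mrpl41, Mrps2, Mrps5 and Mrps26). In Progenitor.1, 8 of the 9 were higher in Tnfr2-/- in both pairs, as were 3 of the 69 members elsewhere, of which 51 were lower in both. Mrpl43 was at 173, 139, 205 and 189 CPM (0.25 and 0.44), Mrpl49 at 60.4, 49.7, 73.3 and 67.9 (0.27 and 0.44) and Mrps2 at 14.5, 12.4, 22.7 and 19.7 (0.62 and 0.63). Mrps26 was the exception, at 128, 91.8, 106 and 89.9 CPM (-0.26 and -0.03). The median over all genes tested on chromosome 19 in Progenitor.1 was 0.47 in both pairs, and on chromosome 2 it was 0.28 and 0.23, against 0.07 and -0.03 over all genes. In mesenchymal cells none of the 9 members was higher in both pairs. Of the 69 others 1 was, and 61 were lower in both. The medians over all genes tested on chromosome 19 were -0.05 and -0.18 there, against -0.07 and -0.19 over all genes. The TNF comparison showed no such split: the median of the 9 in Progenitor.1 was -0.28 and -0.19, and that of the others -0.24 and -0.19. Left out, these members moved the Progenitor.1 genotype differences from -0.16 and -0.12 to -0.20 and -0.17.

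**Figure D3:**
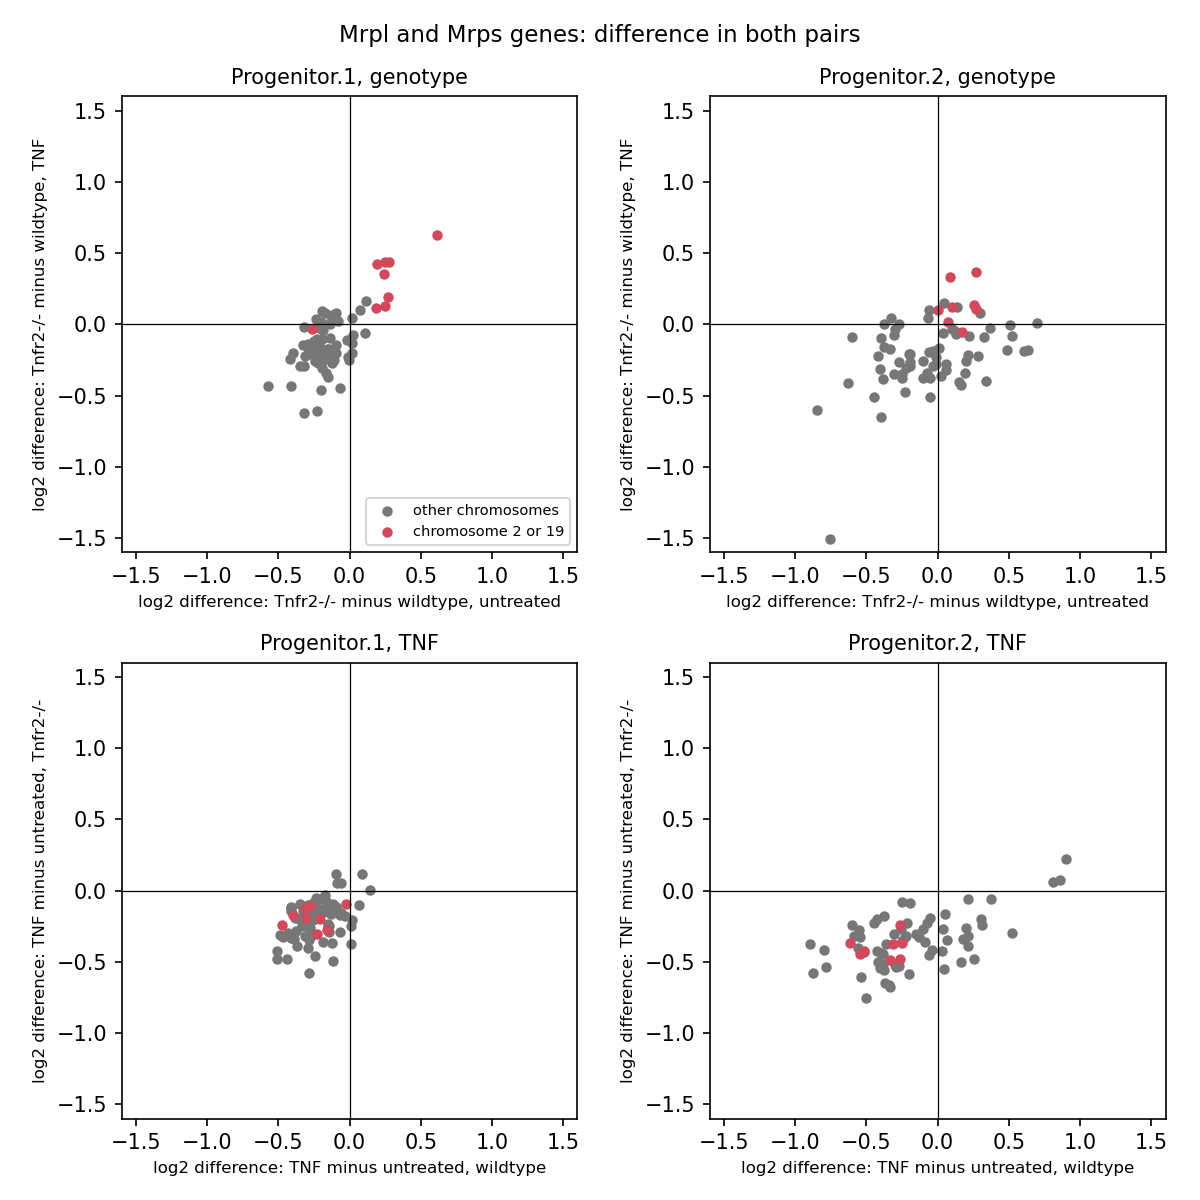
log2 difference of each member in 1 pair (x axis) and in the other (y axis), for genotype (top) and TNF (bottom) in Progenitor.1 (left) and Progenitor.2 (right); red points lie on chromosome 2 or 19. For genotype in Progenitor.1, 8 of the 9 red points lie above 0 on both axes, and for TNF most points lie below 0 on both.

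Over all epithelial cells the sum was 8522 CPM (interval 8497 to 8548), 6826 (6801 to 6852), 7764 (7740 to 7789) and 4713 (4692 to 4735). Tnfr2-/- minus wildtype was -0.13 untreated and -0.53 with TNF, and TNF minus untreated was -0.32 in wildtype and -0.72 in Tnfr2-/-. The untreated genotype difference was -0.24 with TMM and -0.25 with median-of-ratios scaling. The median of all genes shifted by 0.12, -0.10, 0.05 and -0.13 in these comparisons, and the median member by -0.11, -0.59, -0.29 and -0.81. Lower by 1.5-fold were 1 of 77 members for genotype untreated (6.54% of all genes), 39 for genotype with TNF (18.3%), 1 for TNF in wildtype (2.51%) and 59 for TNF in Tnfr2-/- (20.9%). Higher by 1.5-fold was Mrps2 alone for genotype untreated (10.1%), and no member in the other comparisons (11.3%, 6.69% and 11.9%).
These values mix levels within classes with the shares of the classes, which differed widely. Progenitor.2 made up 5.50%, 23.5%, 22.8% and 83.4% of epithelial cells and Progenitor.1 made up 48.4%, 28.8%, 63.2% and 11.1%. Absorptive cells were 28.3% of wildtype untreated and at most 1.63% elsewhere.
Each epithelial difference was therefore split into a part from level differences within classes, at the mean UMI share of both libraries, and a part from share differences, at the mean level. For genotype untreated, the difference of -758 CPM was -857 within classes and 99.4 from shares. With shares of cells and means over cells it was -596 and -183, so that the sign of the share part turned, and with 4 merged classes -819 and 61.6. For genotype with TNF, -2113 CPM was -804 within and -1310 from shares. In wildtype, TNF minus untreated of -1696 CPM was -1317 within and -378 from shares, the latter becoming -635 with shares of cells and means over cells and -576 with 4 merged classes. In Tnfr2-/-, TNF minus untreated of -3051 CPM was -1250 within and -1801 from shares. At these UMI shares the within-class parts lay between -804 and -1317 CPM in all 4 comparisons, while the share parts ran from 99.4 to -1801. With shares of cells and means over cells every within-class part was smaller in size, as at -596 CPM for genotype untreated. The range of the within-class parts therefore holds for the main weighting alone.
By class, Progenitor.1 gave -616, -181, -774 and -525 CPM of the within part for genotype untreated, genotype with TNF, TNF in wildtype and TNF in Tnfr2-/-, and Progenitor.2 gave -43.2, -415, -152 and -646. Member by member, the within part was negative in 64, 62, 71 and 74 of 77 members. The share part was the larger of the 2 in 9, 61, 13 and 66 of them. The split was not run on all genes, so whether other genes would give similar counts is not known.

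**Figure D4:**
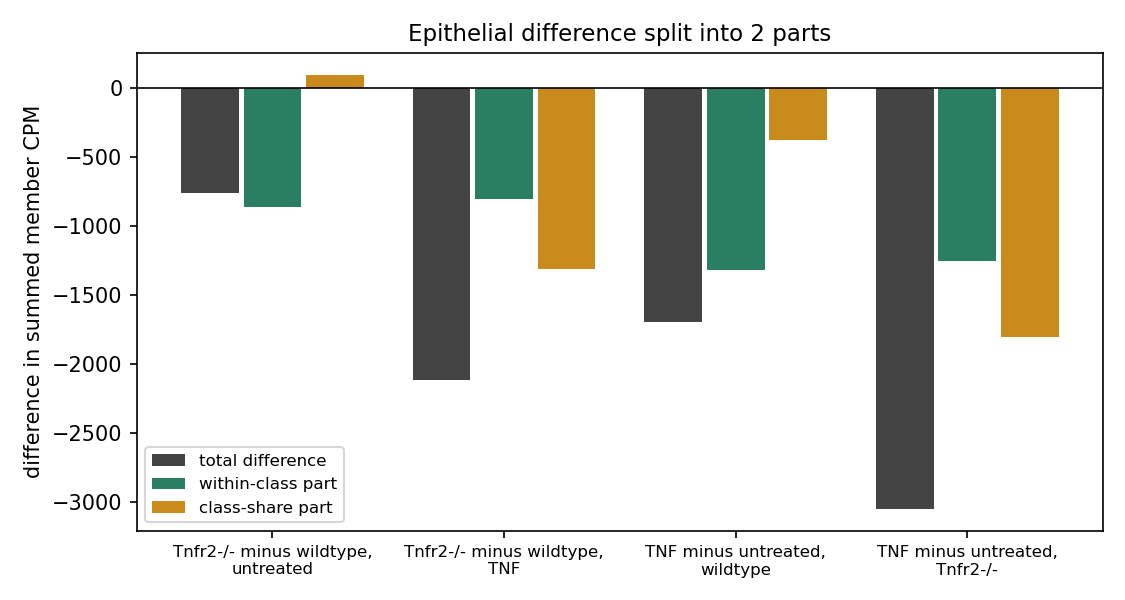
Difference in summed member CPM over all epithelial cells (y axis) for the 4 comparisons, as the total, the within-class part and the class-share part. The within-class bars lie between -804 and -1317 CPM, and the share bars between 99.4 and -1801 CPM; the bar at 99.4 CPM turns to -183 with shares of cells and means over cells.

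The partners of the members in mitochondrial translation were set beside them. Dap3, Ptcd3, Chchd1, Aurkaip1 and Gadd45gip1, ribosomal subunits with other names, summed to 656, 547, 601 and 500 CPM in Progenitor.1, the same order of libraries as the members. None of the 5 passed 1.5-fold in any of the 4 comparisons there. The share of all genes past 1.5-fold in single comparisons of Progenitor.1 was not computed, so this and the list counts below lack a background. Aurkaip1 was at 196, 149, 165 and 134 CPM and Dap3 at 95.6, 78.9, 81.6 and 74.3, and Ptcd3 at 30.2, 31.0, 35.7 and 28.9 did not follow. The 25 assembly factors summed to 510, 469, 461 and 423 CPM. Translation factors (16 genes) summed to 488, 486, 507 and 479 CPM, and the factors that copy and read mitochondrial DNA (18 genes) to 504, 509, 502 and 501, in an order unlike that of the members. Tfam, which packs mitochondrial DNA, was at 51.8, 47.1, 47.1 and 41.7 CPM, and Tufm, the elongation factor that brings tRNA to the ribosome, at 51.1, 53.5, 61.3 and 65.5.
The 20 mitochondrial tRNA synthetases summed to 394, 445, 434 and 513 CPM, of which Lars2 alone was 108, 169, 148 and 266.
The 13 mitochondrially encoded mRNAs, which this ribosome translates, summed to 33316, 43074, 50920 and 58406 CPM in Progenitor.1, lowest in wildtype untreated, where the members were highest. Higher by 1.5-fold were 8 of the 13 for genotype untreated, 3 for genotype with TNF, 1 for TNF in wildtype and 0 for TNF in Tnfr2-/-. None was lower, and these counts have no share over all genes beside them. For TNF in Tnfr2-/- the sum differed by 0.20 but the median gene by -0.0043. In Progenitor.2 they were at 51916, 44727, 43058 and 62370 CPM, with no such order. Nuclear genes of the respiratory chain and ATP synthase (76 genes, 74 measured) were at 38584, 35418, 35854 and 33016 CPM in Progenitor.1, with 0 genes past 1.5-fold in any comparison. Cytosolic ribosomal proteins (83 genes) were at 311972, 288030, 298349 and 303859 CPM. The 26 cell cycle genes were at 1931, 1907, 2285 and 2627 CPM in Progenitor.1, highest in the library where the members were lowest. Nucleolar genes of ribosome biogenesis (26) were at 6709, 5829, 6910 and 5838 CPM, lower with TNF in both genotypes. What part mitochondrial RNA content, which differed between the same libraries, had in the member values was not tested; with mitochondrial UMIs taken out of the totals, the Progenitor.1 differences were -0.13 and -0.10 for genotype and -0.25 and -0.22 for TNF.

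**Figure D5:**
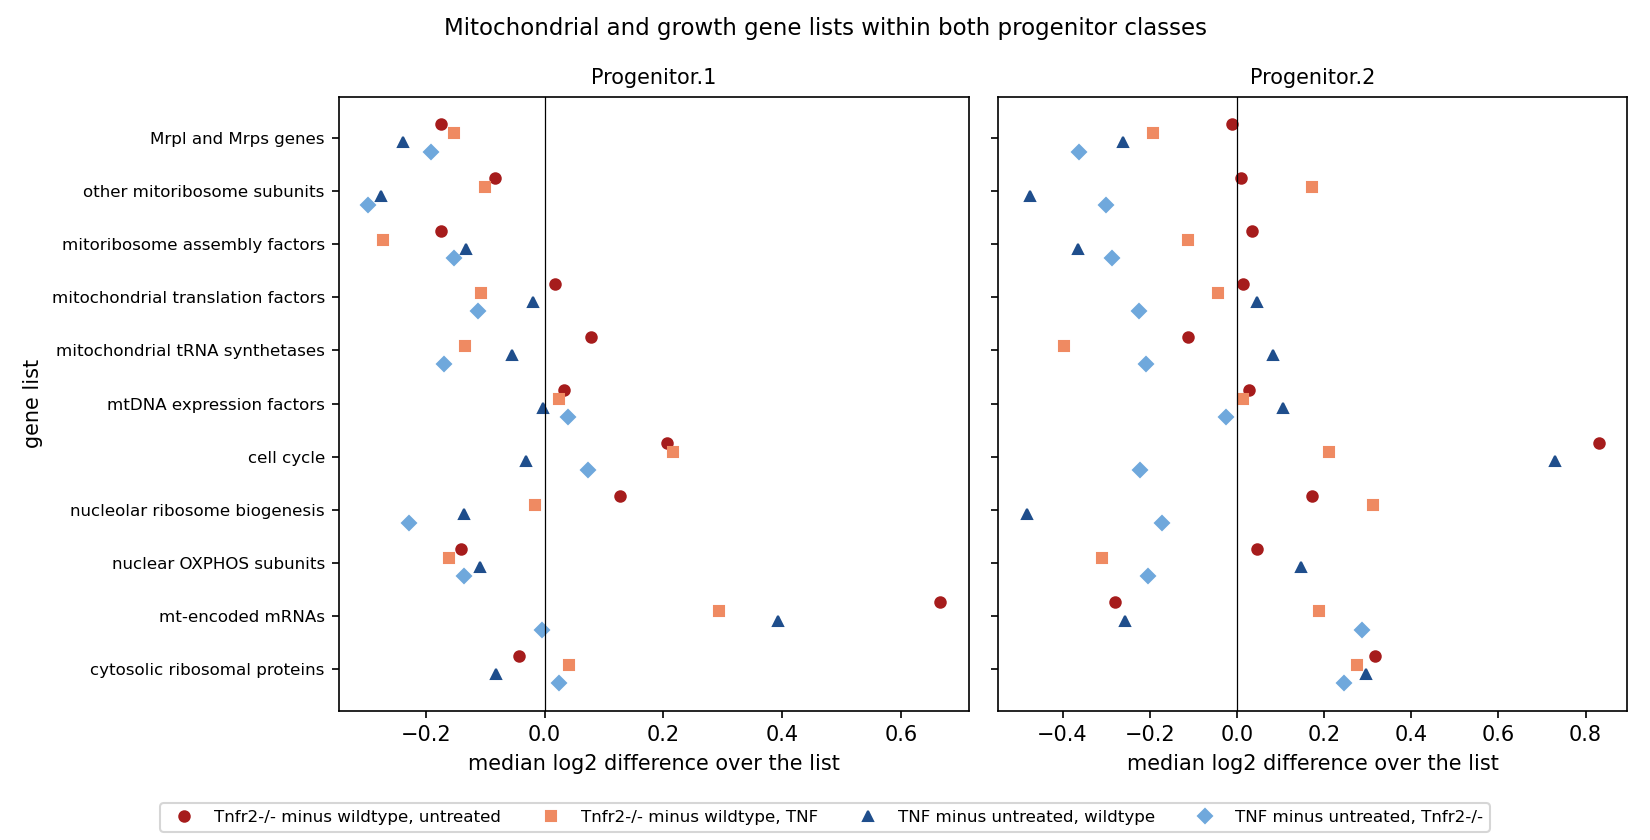
Median log2 difference over the measured genes of each list (x axis) in the 4 comparisons, for Progenitor.1 (left) and Progenitor.2 (right). In Progenitor.1 the Mrpl and Mrps genes lie between -0.24 and -0.15, and the mitochondrially encoded mRNAs reach 0.67 for genotype in the untreated pair.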

How the data were processed

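Single-cell suspensions of 4 colonic organoid cultures were profiled with 10x 3' libraries. Per the labels and the study's methods, the authors made the deposited UMI counts per gene and cell with Cell Ranger 5.0.0 on mm10, removed cells under 100 UMIs and doublets of epithelial with mesenchymal expression, and clustered cells with monocle3. Classes are those of the deposited annotation, and no further doublets were called. Members and gene lists were chosen with earlier results of these data known.

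Counts were summed over the cells of each class and library and scaled to CPM. Exact Poisson 95% intervals cover counting error only. Genes needed a mean of 10 CPM over the 2 libraries compared, and log2 differences of single genes used a pseudocount of 1 CPM. With 1 library per group no test was run. The named members are 20 fixed for their roles, the 5 highest and 5 lowest in Progenitor.1, up to 3 in each direction per comparison within each progenitor class by the smaller of both pairs' differences, those past 1.5-fold in both pairs, and those on chromosomes 2 and 19. Mrps21, Mrpl14 and Mrpl33 (Progenitor.1 against Progenitor.2), Mrpl44 and Mrps7 as members past the lower threshold, and Mrpl4, Mrpl24 and Mrpl34 were picked after their values were seen. For detection per cell, cells were thinned to 5000 UMIs, which left out 405 cells. The calculation of counts past a fold was tested on simulated data. It first missed its pass mark, since changed genes dropped by the CPM filter, and low genes in the shallow wildtype untreated Progenitor.2 pool, were not recovered. The mark was then lowered, with that result known, to cover only genes that pass the filter. Alternatives were TMM factors (edgeR 4.0.16, R 4.3.3), median-of-ratios factors, other totals, filters, pseudocounts, thresholds and cell sets, and other weights in the split. Promoter sequences came from RefSeq (GRCm38.p6). Python 3.11.15, numpy 2.4.6, pandas 2.3.3, scipy 1.17.1 and matplotlib 3.10.9 were used. Libraries held 44547639 to 87228093 UMIs.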

Additional observations from a re-analysis of the deposited data

Results flagged for a closer look

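In Mesenchyme-Ptges the sign of the member difference depended on the pair. Tnfr2-/- minus wildtype was 0.23 untreated and -0.62 with TNF, and TNF minus untreated was 0.57 in wildtype and -0.28 in Tnfr2-/-, from sums of 3807, 5666, 4478 and 3688 CPM. The difference between the pairs was not tested. The wildtype untreated value rests on 34 cells, of which 27 had at least 10% mitochondrial UMIs. Without such cells the sums were 5950, 5684, 4680 and 3727 CPM, and the 4 differences had the same sign. The wildtype untreated sum, which 2 of these differences use, then rests on the few cells left.

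Among single members, 3 large subunit genes had opposite signs in both pairs within Progenitor.2, by more than their counting intervals and again untested. Mrpl24 had 0.60 (untreated) and -0.18 (TNF) for genotype. Mrpl34 had 0.34 and -0.40 for genotype, and 0.25 (wildtype) and -0.48 (Tnfr2-/-) for TNF. Mrpl4 had 0.64 and -0.18 for genotype, and 0.52 and -0.30 for TNF. Each of these pairs of values uses the 62 wildtype untreated cells of the class.

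Cells with no class in the deposited annotation entered no comparison. Their summed member level was 8021 CPM in 31 cells of wildtype untreated and 7554 CPM in 4 cells of Tnfr2-/- untreated.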

How the results depend on the processing

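Over 134 values of the summed member level under other settings, 5 changed sign and the largest move was 0.64 on the log2 scale. Values that moved by more than their counting interval are given here as log2 differences of sums, and the cause was not tested. With TMM factors (edgeR) all epithelial cells had -0.24 (genotype untreated), -0.38 (genotype with TNF), -0.42 (TNF in wildtype) and -0.56 (TNF in Tnfr2-/-), Progenitor.1 had -0.21 (genotype untreated), -0.34 (TNF in wildtype) and -0.26 (TNF in Tnfr2-/-), Progenitor.2 had -0.18 (genotype untreated), -0.18 (genotype with TNF), -0.19 (TNF in wildtype) and -0.19 (TNF in Tnfr2-/-), Progenitor.1 minus Progenitor.2 had 0.46 (wildtype TNF), 0.64 (Tnfr2-/- untreated) and 0.49 (Tnfr2-/- TNF). With median-of-ratios factors all epithelial cells had -0.25 (genotype untreated), -0.38 (genotype with TNF), -0.42 (TNF in wildtype) and -0.55 (TNF in Tnfr2-/-), Progenitor.1 had -0.24 (genotype untreated) and -0.36 (TNF in wildtype), Progenitor.2 had -0.17 (genotype untreated), -0.20 (genotype with TNF), -0.19 (TNF in wildtype) and -0.22 (TNF in Tnfr2-/-), Progenitor.1 minus Progenitor.2 had 0.59 and 0.46 in untreated and TNF wildtype, and 0.54 and 0.55 in Tnfr2-/-. With mitochondrial UMIs left out of the totals all epithelial cells had -0.12 (genotype untreated), -0.51 (genotype with TNF), -0.31 (TNF in wildtype) and -0.70 (TNF in Tnfr2-/-), Progenitor.1 had -0.13 (genotype untreated), -0.10 (genotype with TNF) and -0.25 (TNF in wildtype), Progenitor.2 had -0.19 (genotype with TNF) and -0.33 (TNF in Tnfr2-/-). With the mean over cells all epithelial cells had -0.15 (genotype untreated), -0.58 (genotype with TNF), -0.30 (TNF in wildtype) and -0.74 (TNF in Tnfr2-/-), Progenitor.2 had 0.27 (genotype untreated), -0.14 (genotype with TNF), 0.11 (TNF in wildtype) and -0.30 (TNF in Tnfr2-/-), Progenitor.1 minus Progenitor.2 had 1.15 and 0.78 in untreated and TNF wildtype, and 0.73 and 0.80 in Tnfr2-/-. Without the top 5% of cells by UMIs all epithelial cells had -0.10 (genotype untreated), -0.56 (genotype with TNF), -0.29 (TNF in wildtype) and -0.75 (TNF in Tnfr2-/-), Progenitor.1 had -0.13 (genotype untreated), -0.10 (genotype with TNF) and -0.25 (TNF in wildtype), Progenitor.2 had 0.10 (genotype untreated), -0.21 (genotype with TNF), -0.088 (TNF in wildtype) and -0.39 (TNF in Tnfr2-/-), Progenitor.1 minus Progenitor.2 had 0.86 and 0.70 in untreated and TNF wildtype, and 0.63 and 0.80 in Tnfr2-/-. Without the members on chromosomes 2 and 19 all epithelial cells had -0.18 (genotype untreated), -0.57 (genotype with TNF) and -0.71 (TNF in Tnfr2-/-), Progenitor.1 had -0.20 (genotype untreated) and -0.17 (genotype with TNF), Progenitor.2 had -0.13 (genotype untreated) and -0.26 (genotype with TNF), Progenitor.1 minus Progenitor.2 had 0.72 (Tnfr2-/- TNF). With cells under 10% mitochondrial UMIs, an alternative chosen after seeing the data, all epithelial cells had -0.13 (genotype untreated), -0.51 (genotype with TNF), -0.31 (TNF in wildtype) and -0.70 (TNF in Tnfr2-/-), Progenitor.1 had -0.14 (genotype untreated), Progenitor.2 had -0.21 (genotype untreated) and -0.33 (TNF in wildtype). In cells with Mki67 or Top2a Progenitor.1 had -0.17 (genotype with TNF), -0.28 (TNF in wildtype) and -0.29 (TNF in Tnfr2-/-). In cells without Mki67 or Top2a Progenitor.1 had -0.080 (genotype with TNF), -0.24 (TNF in wildtype) and -0.16 (TNF in Tnfr2-/-). With shares of the second library, the within-class and share parts in CPM were -879 and -1234 (genotype with TNF) and -1439 and -257 (TNF in wildtype). With shares of the first library, the within-class and share parts in CPM were -728 and -1385 (genotype with TNF) and -1196 and -499 (TNF in wildtype). With shares of cells and mean over cells, the within-class and share parts in CPM were -596 and -183 (genotype untreated, where the share part changed sign), -594 and -1588 (genotype with TNF), -906 and -635 (TNF in wildtype) and -1095 and -1850 (TNF in Tnfr2-/-). With 4 merged classes, the within-class and share parts in CPM were -819 and 61.6 (genotype untreated), -866 and -1247 (genotype with TNF) and -1119 and -576 (TNF in wildtype). The median member difference in Progenitor.1 was -0.26 (genotype untreated) and -0.33 (TNF in wildtype) with median-of-ratios factors, and that in Progenitor.2 for TNF in Tnfr2-/- was -0.19 with TMM and -0.22 with median-of-ratios factors. The count of members higher by 1.5-fold in both genotype pairs in Progenitor.1 went from 1 to 0 with a pseudocount of 10, a mean of 30 CPM or more, TMM, median-of-ratios, a 2-fold threshold, and without chromosomes 2 and 19. Past a log2 difference of -0.32, 2 were lower for genotype and 6 for TNF. In Progenitor.2 the count lower for genotype, 2, became 1 with a pseudocount of 10, TMM or median-of-ratios, 0 at 2-fold and 6 past -0.32, and the count lower with TNF, 0, became 1 with a pseudocount of 0.1 and 25 past -0.32. In Mesenchyme-Ptges, cells under 10% mitochondrial UMIs gave -0.35 (genotype untreated) and -0.066 (TNF in wildtype), both of opposite sign to all cells. No paired analysis was possible because the labels give 1 library per group and no replicate numbers, and for the same reason no replicate could be left out. The wildtype untreated cells of Progenitor.2 hold 1679134 UMIs, which limits the precision of single members there.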
